A study of Mus musculus with 12 samples.

Results

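The genes described here are 9 members of the mouse major histocompatibility complex (MHC) antigen presentation system. Cd74, H2-Aa, H2-Ab1, H2-Eb1 and H2-DMa belong to the class II side, and B2m, H2-K1, H2-D1 and H2-Q6 to the class I side. They were taken by name from the 41709 gene rows of the deposited aortic valve table, in which all 9 were found. Each had counts in all 12 libraries, and all 9 passed the filter on low counts that kept 6296 genes for testing. RNA was sequenced from whole aortic valve leaflets of mice aged 2 months, cut by laser microdissection from stained sections of fixed, frozen hearts. The 4 groups of 3 libraries are coded ECKO, SMKO, DKO and CTRL in the labels, which name no gene, Cre driver or floxed allele for these codes. In the study as it is known, the gene deleted is Efemp2, which encodes the elastic fibre protein fibulin-4: in endothelial cells in ECKO mice, in smooth muscle cells in SMKO mice and in both cell types in DKO mice. All groups share the mixed background C57BL/6J;129SvEv. The series describes the libraries as biological triplicates and ties no library to an animal, so p-values measure the spread between these libraries, which may be partly technical.

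MHC class I molecules sit on nearly all nucleated cells and show peptides made inside the cell to CD8 T cells. They consist of a heavy chain, such as H2-K1 or H2-D1, held on the surface by the light chain beta-2 microglobulin, the product of B2m. MHC class II molecules are made mainly by professional antigen-presenting cells, in a valve chiefly resident macrophages and dendritic cells, and show peptides from engulfed material to CD4 T cells. Interferon-gamma raises both classes, through the transactivator Ciita for class II and Nlrc5 for class I.

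Each library held between 74827 and 615665 counts (median 321311.5). Efemp2, the gene that checks the labels, had 3, 15 and 8 counts in ECKO libraries, 4, 0 and 0 in SMKO libraries, 0 in each DKO library, and 58, 23 and 9 counts in CTRL libraries; a 0 allows up to 3 counts in a library. Some libraries stood apart before any comparison. SMKO 3, with 74827 counts, and CTRL 3, with 159857, were the shallowest libraries, and mitochondrially encoded genes took 28.5% and 26.7% of their counts. SMKO 2 had the lowest scaling factor, 0.739, and after that scaling the highest summed level of macrophage markers and of interstitial matrix markers. On the deposited TPM, a within-library share, the interstitial sum of SMKO 2 was 19779, below 28850 in CTRL 2. Its macrophage sum on TPM, 3645, was still the highest. The 3 comparisons against CTRL are also given with libraries left out.

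The promoters of these genes carry the short sequence elements through which the classes are known to be regulated, and they are shown so that class II and class I genes can be compared letter by letter. RefSeq promoter sequences (build GRCm38.p6; the counts themselves were made on GRCm39) were found for 7 of the 9 genes, and 6 are printed, each as the 180 bases before the annotated start. The class II pair is H2-Aa (chr17:34287824-34288003, minus strand) and H2-Eb1 (chr17:34305687-34305866, plus strand). The class I heavy chains are H2-K1 (chr17:34000348-34000527, minus strand), H2-D1 (chr17:35262914-35263093, plus strand) and H2-Q6 (chr17:35424670-35424849, plus strand), and the light chain gene B2m lies outside the complex (chr2:122147507-122147686, plus strand). Capitals mark the motifs searched, on either strand.
H2-Aa: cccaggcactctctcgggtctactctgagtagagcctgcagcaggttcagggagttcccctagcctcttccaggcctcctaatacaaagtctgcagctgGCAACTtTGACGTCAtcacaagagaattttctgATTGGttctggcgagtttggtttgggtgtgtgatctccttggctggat
H2-Eb1: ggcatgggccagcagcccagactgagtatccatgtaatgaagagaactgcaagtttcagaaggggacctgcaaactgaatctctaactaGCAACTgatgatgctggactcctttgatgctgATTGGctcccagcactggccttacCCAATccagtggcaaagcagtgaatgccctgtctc
H2-K1: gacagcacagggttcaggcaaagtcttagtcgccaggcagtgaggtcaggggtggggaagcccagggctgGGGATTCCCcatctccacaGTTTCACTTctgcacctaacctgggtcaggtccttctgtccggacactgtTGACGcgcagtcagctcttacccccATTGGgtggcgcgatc
H2-D1: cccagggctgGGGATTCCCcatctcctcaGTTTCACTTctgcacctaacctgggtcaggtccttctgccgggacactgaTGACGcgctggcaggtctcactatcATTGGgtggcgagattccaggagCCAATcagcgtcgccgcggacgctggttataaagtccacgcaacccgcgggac
H2-Q6: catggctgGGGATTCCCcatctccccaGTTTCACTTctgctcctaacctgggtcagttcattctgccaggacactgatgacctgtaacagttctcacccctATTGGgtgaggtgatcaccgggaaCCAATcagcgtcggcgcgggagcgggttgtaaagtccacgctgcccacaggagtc
B2m: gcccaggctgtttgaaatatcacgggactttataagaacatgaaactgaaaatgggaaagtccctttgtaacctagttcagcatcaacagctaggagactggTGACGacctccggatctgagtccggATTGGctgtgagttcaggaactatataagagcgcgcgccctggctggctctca
The letters searched were GGGATTCCC, the core of the kappa B site of the class I enhancer A; GTTTCACTT, an interferon response element core; GCAACT, the core of the class II X box; TGACG, a site of the CRE type; and CCAAT, the Y box. In H2-Aa the match to TGACG overlaps its own reverse complement. GGGATTCCC was present in H2-K1, H2-D1 and H2-Q6 and in 0.180% of the 32851 RefSeq promoter windows of this length. GTTTCACTT was in the same 3 genes and in 0.216% of all windows. GCAACT was in H2-Aa and H2-Eb1 (6.51% of all windows), TGACG in H2-Aa, H2-K1, H2-D1 and B2m (14.8%), and CCAAT in all 6 (27.5%). These motifs were chosen after the sequences had been read, and a match is a run of letters, not a measured binding site. The search took exact letters only and leaves variant forms unmarked, so a gene without a match may still carry the element.

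Levels between genes were compared in TPM, a within-library share of transcripts that corrects for transcript length. B2m was the most abundant member, with 4121 TPM as the mean of 12 libraries (range 1876 to 6680 TPM), the 21st highest value of the table. H2-Aa (mean 942 TPM), H2-D1 (731), H2-K1 (648), H2-Ab1 (603), Cd74 (386) and H2-Eb1 (284) followed, and the ranges of neighbours in this order overlapped from H2-Aa to H2-Eb1. H2-Q6 (23.2 TPM) and H2-DMa (19.6 TPM) were far lower, with 107 and 134 counts in all 12 libraries together. B2m stood above H2-Aa without overlap, since the highest H2-Aa level was 1714 TPM; the lowest H2-Eb1 level, 132 TPM, stood above the highest of H2-Q6, 78.1 TPM, and of H2-DMa, 33.3 TPM.

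Levels by group are given in CPM, a share of the counts of a library scaled by TMM, as the value of libraries 1, 2 and 3 of each group and as mean ± SD (n = 3 libraries each). A log2 fold change above 0 means a higher level in the knockout group, its error is a standard error, and p is from edgeR's quasi-likelihood F test with Benjamini-Hochberg adjustment over the 6296 genes; a gene is called at an adjusted p under 0.05. No MHC gene was called in any comparison, so the differences in what follows are estimates with their errors. The 3 comparisons against CTRL share the same CTRL libraries. In tissue RNA, fewer cells of a type and less RNA per cell cannot be told apart.

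Cd74, the invariant chain that guides class II molecules to the endosome and blocks their groove on the way, had 384, 362 and 165 CPM in ECKO libraries, 463, 288 and 331 in SMKO libraries, 531, 221 and 415 in DKO libraries, and 227, 243 and 215 CPM in CTRL libraries. In CPM the CTRL libraries lay close together, and the lowest SMKO library was above the highest CTRL library. ECKO spanned the CTRL values and DKO 2 lay among them. On the deposited TPM, CTRL libraries had 376, 379 and 185 TPM, and SMKO 2, at 209 TPM, lay between them. Group means were 304 ± 120.4 CPM in ECKO, 361 ± 91.2 in SMKO, 389 ± 157 in DKO and 228 ± 13.6 in CTRL. The log2 fold change was 0.74 ± 0.32 in DKO against CTRL (95% interval 0.09 to 1.39, adjusted p = 0.342) and 0.68 ± 0.32 in SMKO against CTRL (0.02 to 1.34, adjusted p = 0.885). In ECKO against CTRL it was 0.39 ± 0.32 (-0.26 to 1.04, adjusted p = 0.998).

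H2-Aa encodes the alpha chain of I-A, the class II molecule of this background. Its level was 650.3, 772 and 450.0 CPM in ECKO libraries, 966, 555 and 428 in SMKO libraries, 1139.6, 345 and 701 in DKO libraries, and 421, 459 and 572 CPM in CTRL libraries. All 3 knockout groups overlapped CTRL, and DKO held both the highest and the lowest library in CPM. On TPM these were SMKO 1, at 1714 TPM, and SMKO 2, at 506 TPM. Means were 624 ± 163 CPM in ECKO, 649.6 ± 282 in SMKO, 728 ± 398 in DKO and 484 ± 78.5 in CTRL, with log2 fold changes of 0.38 ± 0.36, 0.47 ± 0.36 and 0.59 ± 0.36 for the knockout groups in that order.

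The partner beta chain, H2-Ab1, followed the same order of libraries almost exactly (Spearman's rho 0.99 with H2-Aa over 12 libraries). It had 456, 498 and 294 CPM in ECKO libraries, 502, 431 and 386 in SMKO libraries, 889.9, 185 and 469 in DKO libraries, and 271, 400.3 and 438 CPM in CTRL libraries. DKO 1 was more than any other library and DKO 2 less than any other, and the means were 515 ± 355 CPM in DKO, 416 ± 108 in ECKO, 439.9 ± 58.2 in SMKO and 369.9 ± 87.7 in CTRL. The log2 fold change in DKO against CTRL was 0.47 ± 0.41; it was -0.20 without DKO 1.

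H2-Eb1, the beta chain of I-E, the other class II molecule of mice, had 235.5, 360.4 and 204 CPM in ECKO libraries, 461, 231 and 373 in SMKO libraries, 422, 219 and 311 in DKO libraries, and 197, 277 and 238 CPM in CTRL libraries. Groups overlapped in every comparison. The lowest unadjusted p was in SMKO against CTRL (log2 fold change 0.60 ± 0.30, 95% interval -0.01 to 1.21, adjusted p = 0.885). The matching alpha chain gene, H2-Ea, had 0 of 4332563 counts over the 12 libraries, which allows a level of up to 0.692 CPM. As background, the H2-b haplotypes of C57BL/6 and 129 mice carry a defective H2-Ea, so their H2-Eb1 transcript has no I-E partner.

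H2-DMa, a chain of the H2-DM molecule that swaps the invariant chain fragment for peptide, rested on 2 to 28 counts a library. It had 30.7, 40.9 and 22.96 CPM in ECKO libraries, 27.2, 25.7 and 41.4 in SMKO libraries, 40.9, 3.98 and 37.3 in DKO libraries, and 21.9, 40.2 and 37.1 CPM in CTRL libraries. DKO 2 alone was low, on 2 counts (95% Poisson interval 0.482 to 14.4 CPM); the partner gene H2-DMb1, below the filter, had 11 counts in the same library. The log2 fold change in DKO against CTRL was -0.48 ± 0.53 and turned to 0.29 without DKO 2.

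**Figure D1:**
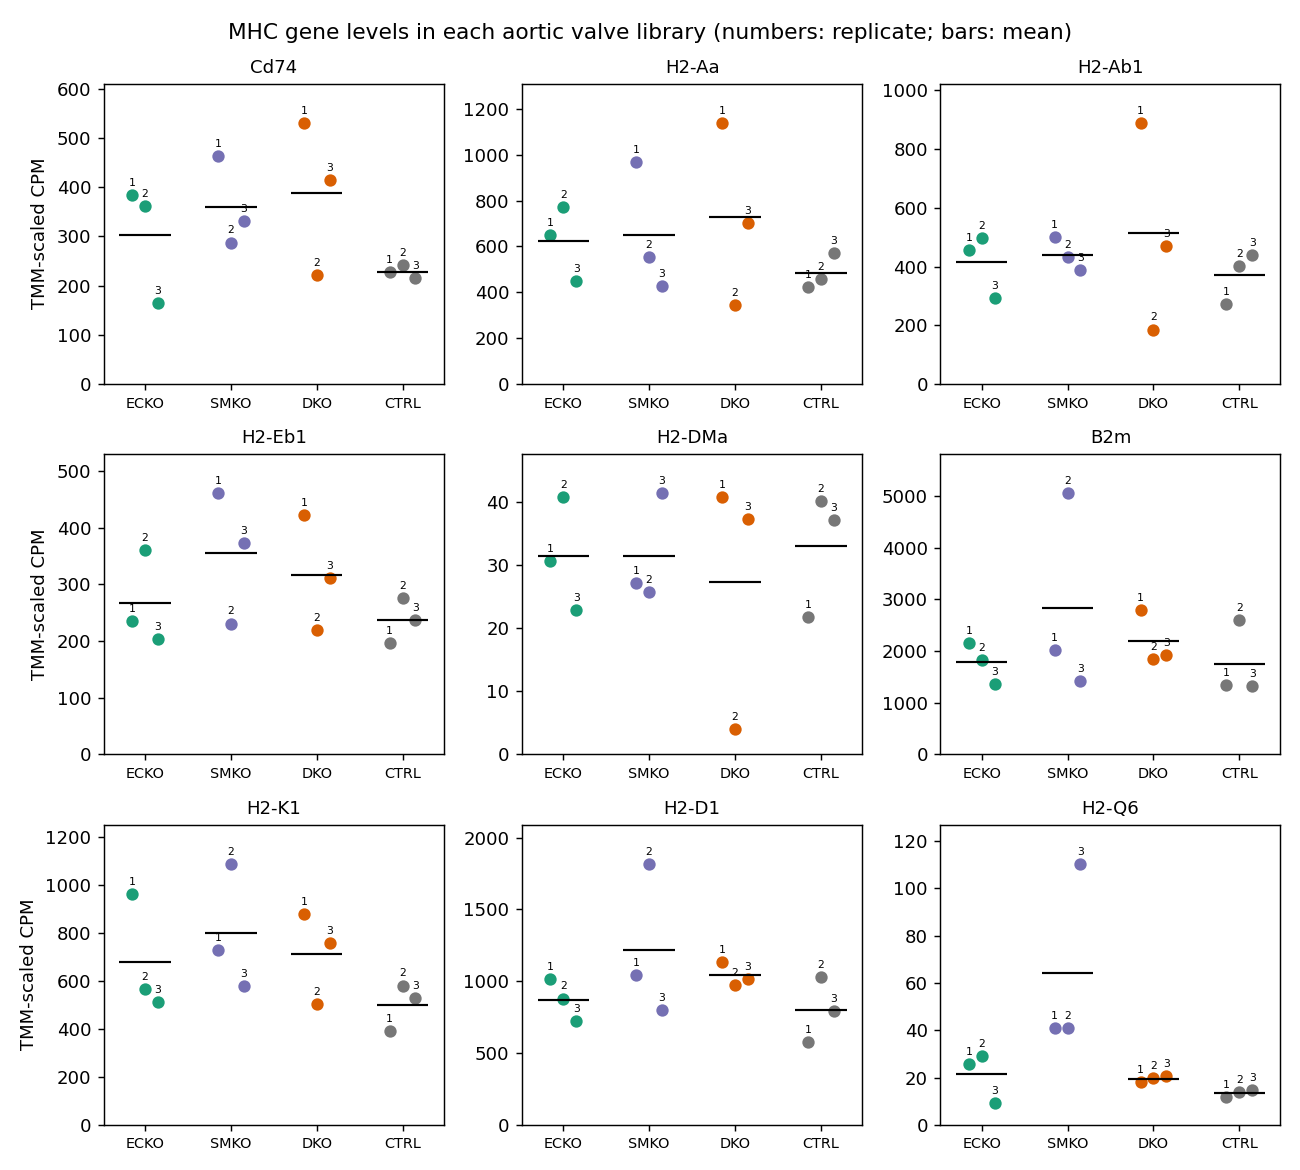
Level of each MHC gene in each library, in TMM-scaled CPM, for ECKO, SMKO, DKO and CTRL; points carry the replicate number and bars are means of 3 libraries. On this scale, CTRL libraries of Cd74 sit between 215 and 243 CPM. DKO 1 is the highest library for H2-Aa and H2-Ab1, and SMKO 2 is the highest for B2m, H2-K1 and H2-D1. Of the genes just named, only H2-Ab1 keeps the same highest library on TPM.

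On the class I side, B2m had 2161, 1833 and 1357 CPM in ECKO libraries, 2011, 5053 and 1422 in SMKO libraries, 2801, 1846 and 1928 in DKO libraries, and 1349.5, 2595 and 1329.9 CPM in CTRL libraries. SMKO 2 stood far above the rest in CPM, and every knockout group overlapped CTRL. On the deposited TPM, CTRL 2 was the highest library, at 6680 TPM, against 6048 TPM in SMKO 2. The SMKO mean was 2829 ± 1949 CPM, against 1758 ± 725 in CTRL, and the log2 fold change of 0.69 ± 0.39 became -0.05 without SMKO 2. It was 0.02 ± 0.39 in ECKO and 0.31 ± 0.39 in DKO against CTRL.

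H2-K1, a classical heavy chain, had 963, 565 and 514 CPM in ECKO libraries, 729.9, 1089 and 579.7 in SMKO libraries, 881, 504 and 759 in DKO libraries, and 392, 581 and 527.5 CPM in CTRL libraries. The highest library of each knockout group exceeded all CTRL libraries and the lowest of each fell within their range. On TPM, SMKO 1 was the highest library, at 844 TPM, and no DKO library exceeded CTRL 2, at 744 TPM. The log2 fold change was 0.69 ± 0.31 in SMKO against CTRL (95% interval 0.07 to 1.32, adjusted p = 0.885), with 0.40 without SMKO 2. It was 0.44 ± 0.30 in ECKO and 0.51 ± 0.30 in DKO against CTRL.

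H2-D1, the other classical heavy chain of these strains, had 1014, 879.9 and 723 CPM in ECKO libraries, 1045, 1818 and 801 in SMKO libraries, 1135, 972 and 1016 in DKO libraries, and 579, 1026 and 795 CPM in CTRL libraries. The DKO libraries lay close together at 1041 ± 84.4 CPM, against 799.9 ± 224 CPM in CTRL, and CTRL 2 fell inside the DKO range. SMKO 2 was again the highest in CPM, while on TPM CTRL 2 was, at 1007 TPM, against 829 TPM in SMKO 2. The log2 fold change was 0.12 ± 0.31 in ECKO, 0.62 ± 0.31 in SMKO (0.20 without SMKO 2) and 0.38 ± 0.31 in DKO against CTRL.

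H2-Q6, a nonclassical heavy chain of the Qa-2 family, was the member with the largest difference. It had 25.6, 29.2 and 9.18 CPM in ECKO libraries, 40.8, 41.1 and 110.4 in SMKO libraries, 18.2, 19.9 and 20.7 in DKO libraries, and 11.7, 13.9 and 14.9 CPM in CTRL libraries. These levels came from 5, 20 and 4 counts in ECKO, 24, 8 and 8 in SMKO, 4, 10 and 5 in DKO, and 8, 9 and 2 counts in CTRL. The SMKO libraries lay above all others, and the DKO libraries above the CTRL libraries by a small margin. H2-Q6 passed the low-count filter only with SMKO 1 included, so its entry into the tests leaned on the group where it was highest. Means were 21.3 ± 10.7 CPM in ECKO, 64.1 ± 40.1 in SMKO, 19.6 ± 1.31 in DKO and 13.5 ± 1.64 in CTRL. The log2 fold change in SMKO against CTRL was 1.96 ± 0.53 (95% interval 0.88 to 3.05, unadjusted p = 0.000842, adjusted p = 0.703). In DKO against SMKO it was -1.38 ± 0.53 (-2.46 to -0.30, adjusted p = 0.616), and the test over all 4 groups gave an adjusted p of 0.279 (unadjusted p = 0.00587). H2-Q6 was the only member with an unadjusted p under 0.05 in that test, beside 8.99% of genes, and none was among the 0.302% of genes called.

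The H2-Q6 counts are uncertain for a further reason. Of its 2011 windows of 75 bases, the read length, 17.9% are shared letter for letter with another transcript, mostly with H2-Q7, a near copy that lies in the same cluster. H2-Q7 itself, below the filter, had 22.7 ± 2.17 CPM in ECKO, 23.4 ± 5.64 in SMKO, 10.7 ± 4.12 in DKO and 12.1 ± 8.24 in CTRL. With both genes added, an alternative chosen after seeing the data, levels were 44.1 ± 11.1 CPM in ECKO, 87.5 ± 43.9 in SMKO, 30.3 ± 3.87 in DKO and 25.6 ± 8.78 in CTRL. The summed log2 fold change was 1.44 in SMKO against CTRL (adjusted p = 0.703) and -1.29 in DKO against SMKO (adjusted p = 0.482). Without SMKO 3, the shallow library with the highest value, H2-Q6 had a log2 fold change of 1.63 in SMKO against CTRL (adjusted p = 0.771). For H2-D1 and H2-K1 the shared windows came to 6.90% and 1.55%, and for the other 6 members to 0%; how the authors assigned reads that match several genes is not given in the sources used here.

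**Figure D2:**
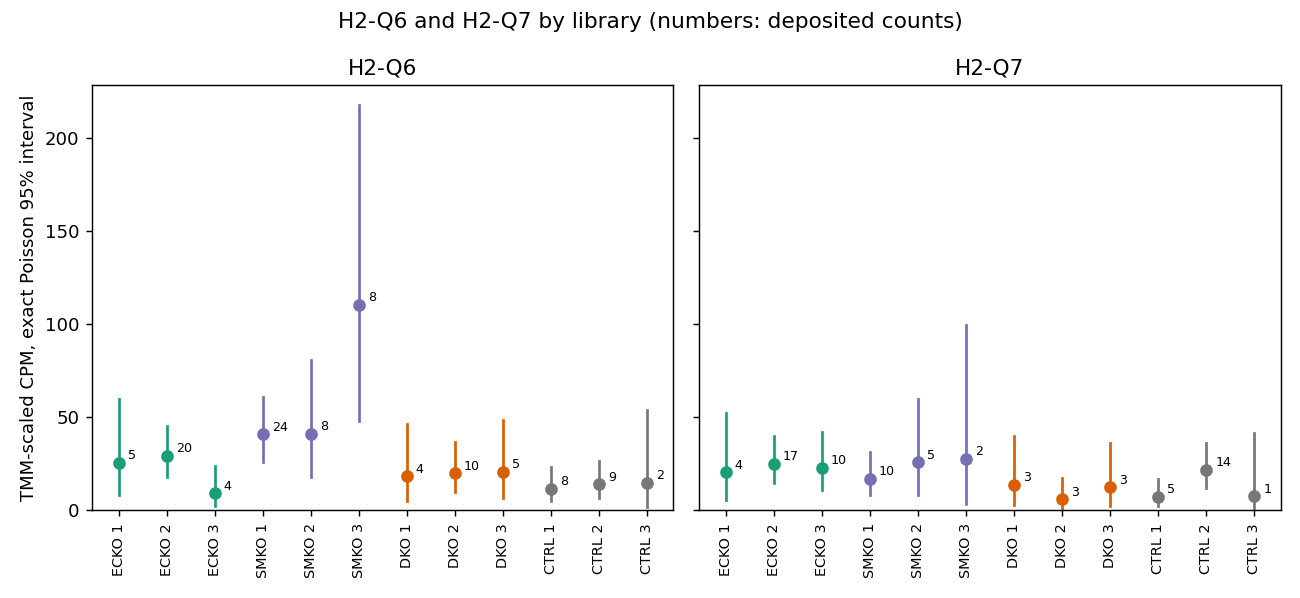
H2-Q6 and H2-Q7 in each library, in TMM-scaled CPM with exact Poisson 95% intervals that cover counting error only; the numbers are deposited counts. H2-Q6 in SMKO libraries runs from 40.8 to 110.4 CPM, above all other libraries, and the interval of SMKO 3, on 8 counts, reaches from 47.7 to 218 CPM.

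Of the 3 comparisons against CTRL, ECKO had the lowest median difference. All 9 estimates were above 0, with a median log2 fold change of 0.19, beside 49.5% of all genes above 0 and a median of -0.0041 over all genes. None of the 9 was called, where 0% of all genes were, nor had any an unadjusted p under 0.05, beside 4.34% of genes. Groups overlapped for all 9 members; over all genes, 5.73% were higher and 6.07% lower in ECKO without overlap. The nearest to a difference were H2-Q6 (0.71 ± 0.54) and H2-K1 (0.44 ± 0.30), and 8 of 9 were above 0 without the libraries under 200000 counts. Leaving out single libraries gave medians of 0.05, without CTRL 1 and with 5 of 9 above 0, to 0.39, without ECKO 3, where 1 member had an unadjusted p under 0.05. On the deposited TPM, 7 of 9 ratios of group means were above 0, with a median log2 ratio of 0.18.

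In SMKO against CTRL, 8 of 9 estimates were above 0 and H2-DMa below it (-0.16 ± 0.53), with a median of 0.62, beside 50.4% of genes above 0. None was called, as for 0% of all genes, and H2-Q6, H2-K1 and Cd74 had an unadjusted p under 0.05, where 5.48% of genes did. Cd74 and H2-Q6 had groups that did not overlap, higher in SMKO, as had 4.11% of genes, and no member was lower without overlap, beside 6.35% of genes. Without SMKO 1 the median was 0.35 over the 8 members that then passed the filter, H2-Q6 being the other. Without SMKO 2 the median was 0.40 with 7 of 9 above 0, and without SMKO 3 it was 0.73. Without the libraries under 200000 counts it was 0.81, with 8 of 9 above 0. The count of 3 members with an unadjusted p under 0.05 was 1 without CTRL 1 and 1 without CTRL 3, and 5 without CTRL 2. On the deposited TPM the median log2 ratio of group means was 0.22 over the members, with 7 of 9 above 0, beside -0.36 over all genes tested; with TMM-scaled CPM the same medians were 0.61 and 0.0011. On TPM, Cd74 had a log2 ratio of 0.36 and overlapped CTRL, H2-K1 had 0.27, B2m 0.11 and H2-Ab1 -0.0245, and H2-Q6, at 1.91, still did not overlap CTRL, while ECKO 2 (28.3 TPM) was above SMKO 2 (20.3 TPM). Libraries of SMKO kept the same order in B2m, H2-K1, H2-D1 and the macrophage markers, whose sum was 2048, 4586 and 1173 CPM in SMKO libraries, against 1209.6, 1604 and 1597 CPM in CTRL libraries. That order was not particular to macrophage markers. Summed interstitial markers (29882, 50582 and 21063 CPM) and melanocyte markers (563, 981 and 193 CPM) kept it too, while endothelial markers (1177, 981 and 1601 CPM) did not. Of 14 macrophage markers tested, 12 were above 0 in SMKO against CTRL and 2 below, with a median log2 fold change of 0.34; the part of these cells in the result was not tested.

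In DKO against CTRL, 8 of 9 estimates were again above 0, with a median of 0.47, beside 51.5% of genes above 0. No member was among the 0.492% of genes called. Cd74 had an unadjusted p under 0.05, as did 11.6% of genes, and H2-Q6 was the member whose groups did not overlap, higher in DKO, as for 9.70% of genes; none was lower without overlap, beside 8.13% of genes. The authors' deposited table gave Cd74 a fold change of 1.65 in DKO against CTRL with p = 0.0614. The DKO estimates leaned on library 1: without DKO 1 the median was 0.14, without CTRL 1 it was 0.28, and without DKO 2 it was 0.63 with all 9 above 0. Without the libraries under 200000 counts it was 0.53. The count of 1 member with an unadjusted p under 0.05 was 4 without DKO 2 and 0 without DKO 1, DKO 3, CTRL 1 or CTRL 3. On the deposited TPM the median log2 ratio was 0.21 with 8 of 9 above 0, beside -0.18 over all genes, and H2-Q6 overlapped CTRL. Macrophage marker sums were 2633, 1123 and 2156 CPM in DKO libraries, against 1209.6, 1604 and 1597 CPM in CTRL libraries. Without Lyz2, a setting chosen after seeing the data, they were 1421, 731 and 1563 CPM in DKO libraries, against 918, 1232 and 1189 CPM in CTRL libraries. DKO 2 was the lowest library either way. Of 14 macrophage markers tested, 8 were above 0 in DKO against CTRL and 6 below, with a median of 0.14; their part was not tested.

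**Figure D3:**
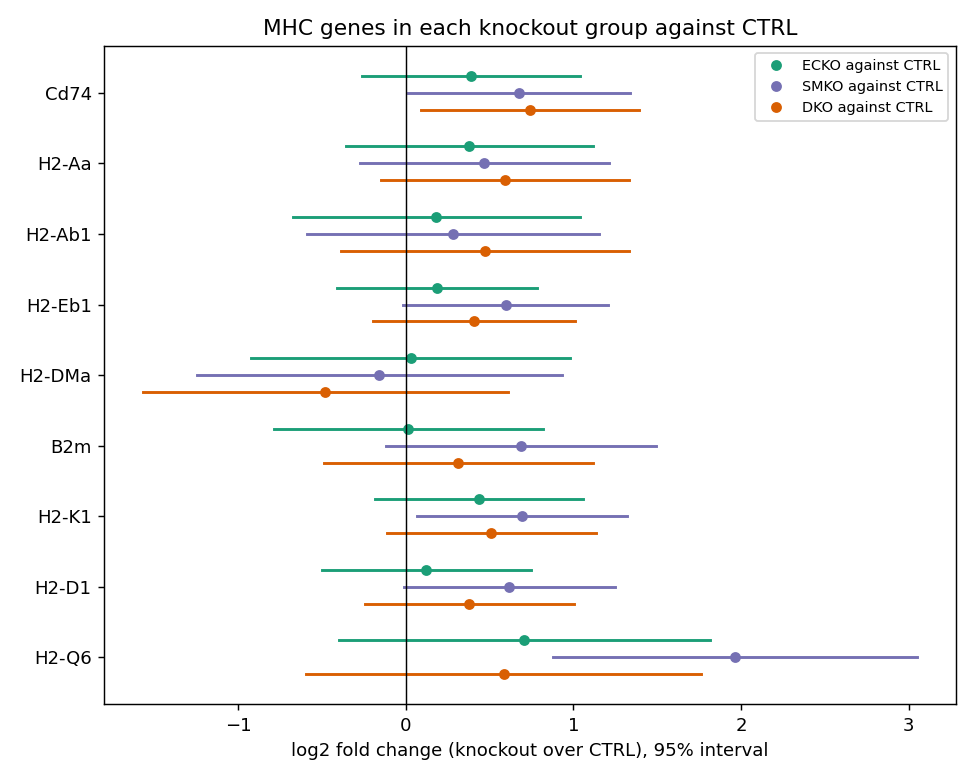
Log2 fold change of each MHC gene in ECKO, SMKO and DKO, each against CTRL, with 95% intervals from the fit over all 12 libraries. Most estimates lie right of 0 and most intervals cross it; the H2-Q6 interval in SMKO against CTRL runs from 0.88 to 3.05.

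The double knockout was also set against each single knockout. In DKO against ECKO, 7 of 9 estimates were above 0 with a median of 0.22, beside 51.8% of genes above 0, and no member was among the 0.572% of genes called; without DKO 1, 3 of 9 were above 0 with a median of -0.08. No member had an unadjusted p under 0.05, beside 10.8% of genes, and groups overlapped for all 9, where 9.97% of genes were higher and 8.88% lower in DKO without overlap. In DKO against SMKO, 3 of 9 were above 0 with a median of -0.19, beside 52.2% of genes, and 0% of all genes were called. H2-Q6 was lower in DKO with groups that did not overlap, as were 3.83% of genes, and no member was higher without overlap (5.72% of genes). H2-Q6 alone had an unadjusted p under 0.05, beside 6.29% of genes. The authors' deposited table gave it a signed fold change of -2.33 with p = 0.0119, from the same libraries and thus not as separate support. H2-Q6 passed the filter only with SMKO 1 included, a library of the group where it was highest. That selection bears on its values in DKO against SMKO and in the interaction. The interaction, which asks whether the DKO difference from ECKO departs from the SMKO difference from CTRL, was largest for H2-Q6 (-2.09 ± 0.76 on the log2 scale, adjusted p = 0.625), and no member was among the 0.0318% of genes called. It was above 0 for 1 of 9 members, beside 52.1% of genes, with a median of -0.36, and H2-Q6 alone had an unadjusted p under 0.05, beside 6.23% of genes. Without DKO 1, 0 of 9 members were above 0 in DKO against SMKO and without DKO 2, 6 of 9 were.

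Ratios of levels between members were taken within each library. H2-Aa exceeded H2-Ab1 in all 12 libraries, with a TPM ratio of 1.19 to 2.07 and a median of 1.57. Cd74 over H2-Aa ran from 0.293 to 0.617 and H2-Eb1 over H2-Ab1, the widest of the ratios between single genes, from 0.320 to 0.798 with a median of 0.468. The ratio of the heavy chains H2-D1 over H2-K1 ran from 0.808 to 1.48 with a median of 1.11. B2m exceeded the sum of H2-K1 and H2-D1 by a ratio of 2.35 to 4.09, with a median of 2.81. By group, H2-Aa over H2-Ab1 was 1.62 ± 0.07 in ECKO, 1.55 ± 0.46 in SMKO, 1.66 ± 0.31 in DKO and 1.43 ± 0.22 in CTRL, so the group values differed by less than the spread of SMKO or DKO libraries. The class II sum over the class I sum was 0.162 in SMKO 2, the lowest value, and 0.256 to 0.575 in the other 11 libraries.

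After the group means were removed, the 10 pairs of class II genes correlated with Pearson's r of 0.67 to 0.90 on log2 CPM over 12 libraries. H2-Aa with H2-Ab1 was the highest at 0.90, and Cd74 with H2-Aa gave 0.84. Among class I genes, B2m, H2-D1 and H2-K1 correlated at 0.79 to 0.94, while H2-Q6 correlated at -0.25 to -0.09 with them. Pairs across the classes were looser, at -0.10 to 0.64 with a median of 0.26. All these points share libraries, depth and scaling, so the values are given as descriptions.

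**Figure D4:**
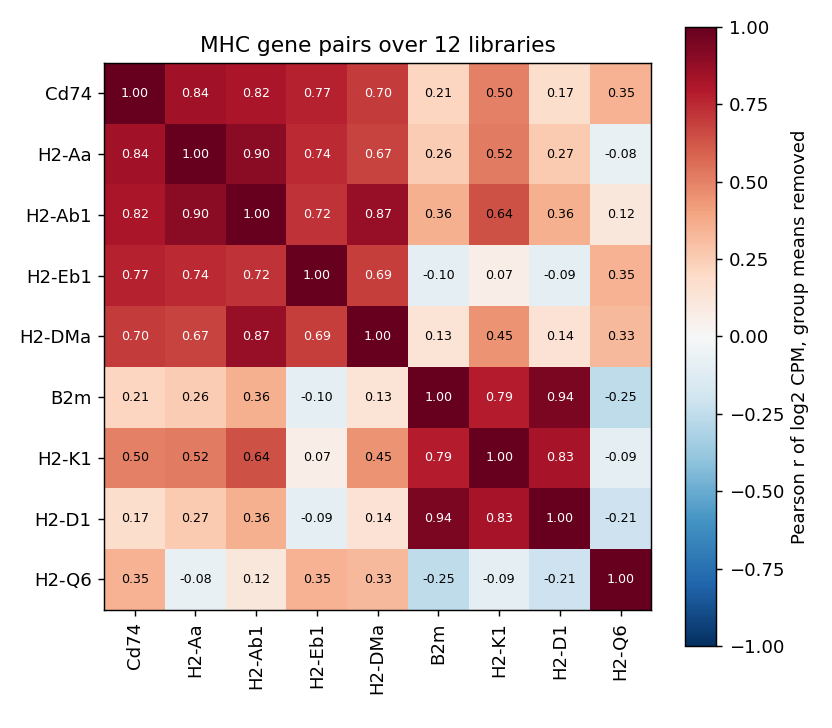
Pearson's r of log2 CPM between MHC genes over 12 libraries with group means removed, on a colour scale from -1 to 1. The block of 5 class II genes holds values of 0.67 to 0.90, the block of B2m, H2-K1 and H2-D1 values of 0.79 to 0.94, and H2-Q6 correlates with neither block above 0.35.

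The leaflets held macrophage transcripts and few lymphocyte ones. All 18 macrophage markers had counts, and their sum ranged over 1148 to 2012 CPM in ECKO, 1173 to 4586 in SMKO, 1123 to 2633 in DKO and 1209.6 to 1604 CPM in CTRL. The sum of SMKO 2 was largely Lyz2, a lysozyme of myeloid cells, at 2871 CPM; its C1qb, a complement gene of tissue macrophages, was 318 CPM, against 105.5 to 297 CPM in the other 11 libraries. The 10 lymphocyte markers had 35 counts in all, with Ighm, Cd3e, Cd3d and Trac at 0 in every library, and ranged over 2.30 to 10.2 CPM in ECKO, 0 to 11.9 in SMKO, 0 to 4.54 in DKO and 9.27 to 29.7 CPM in CTRL. Of the 8 dendritic cell markers, 6 had under 10 counts, with Flt3 among them at 0. Zbtb46, with 87 counts, and Itgax, with 64, had counts in all 12 libraries. The sum of the 8 markers was 36.7 to 48.2 CPM in ECKO, 30.6 to 56.5 in SMKO, 27.9 to 41.5 in DKO and 29.4 to 37.9 CPM in CTRL.

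Each member was set against the mean log2 CPM of 14 macrophage markers over the 12 libraries, with permutation p-values adjusted over the 27 relations computed with 3 marker lists. The permutation moved libraries across the groups, so group differences, shared depth and shared scaling all count in r and its p-value. The share of all genes that reach a like r was not computed. H2-K1 correlated most closely, with Pearson's r = 0.85 (permutation p = 0.00055, adjusted p = 0.0148) and Spearman's rho = 0.81 (permutation p = 0.00227, adjusted p = 0.0613). Without SMKO 2 and DKO 2, the libraries farthest out on the marker axis, r was 0.80, and with group means removed it was 0.94. B2m (r = 0.75, adjusted p = 0.0228; rho = 0.69, adjusted p = 0.141) and H2-D1 (r = 0.75, adjusted p = 0.0228; rho = 0.75, adjusted p = 0.0958) passed on r but not on rho, in the permutation test; without those 2 libraries r was 0.75 for B2m and 0.81 for H2-D1. The class II genes correlated at r = 0.25 for H2-Eb1, 0.41 for H2-DMa, 0.54 for Cd74, 0.61 for H2-Aa and 0.66 for H2-Ab1, none past the threshold after adjustment (permutation test, lowest adjusted p = 0.0730), and H2-Q6 at 0.07. No relation with endothelial or interstitial markers passed after adjustment. With group means removed, r with the macrophage list was 0.72 for B2m and 0.75 for H2-D1. Values of like size were found there with the other lists. With endothelial markers r was -0.93 for B2m, -0.75 for H2-K1 and -0.83 for H2-D1, and with interstitial markers it was 0.78, 0.74 and 0.74. On the deposited TPM, with group means kept, the 3 genes in that order had r of 0.69, 0.78 and 0.66 with macrophage, -0.13, 0.05 and 0.06 with endothelial, and 0.55, 0.48 and 0.60 with interstitial markers.

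**Figure D5:**
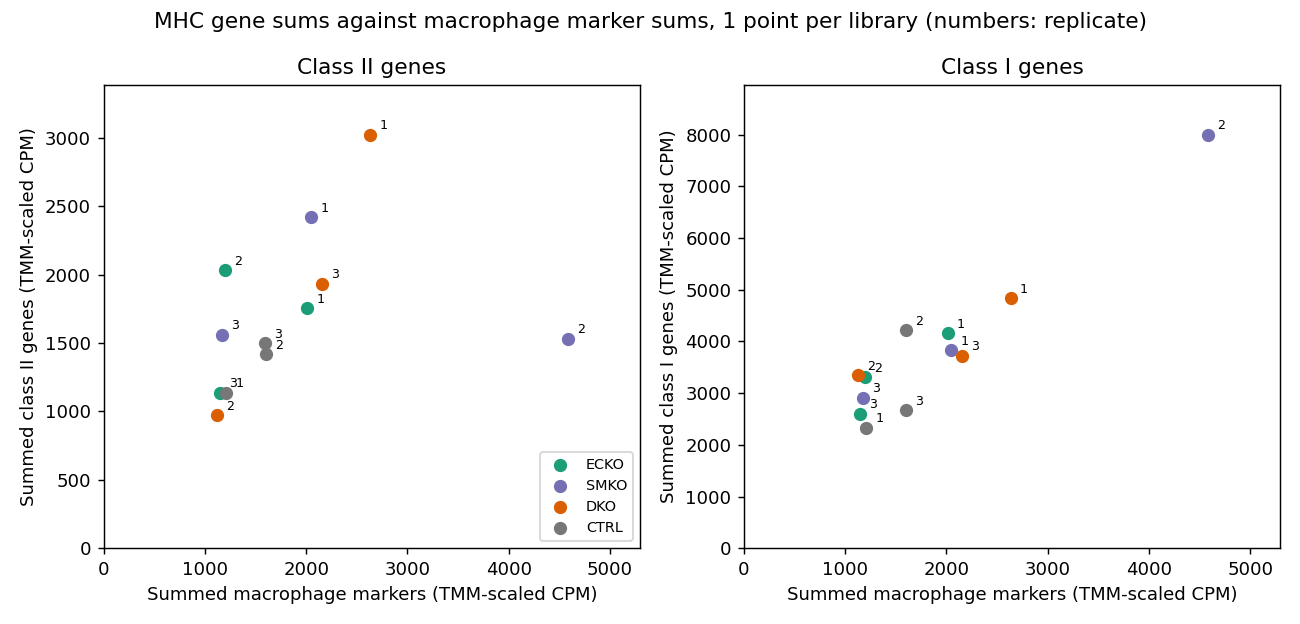
Summed class II genes (left) and summed class I genes (right) against summed macrophage markers, in TMM-scaled CPM, with 1 point per library numbered by replicate. SMKO 2, at 4586 CPM of markers, is the highest library for class I, at 8001 CPM, and in the middle of the range for class II, at 1530.3 CPM. On TPM the highest class I sum is in CTRL, at 8446 TPM, against 7545 TPM for the highest SMKO library.

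The rest of the presentation machinery was read from lists. None of the listed pathway genes was called in any comparison, and the pairs of genes named next are those with the smallest p over the 4 groups in each list, none of which passed. Of 8 genes tested from the list of class I heavy chains and B2m, 7 were above 0 in ECKO, 6 in SMKO and 6 in DKO against CTRL. Their medians were 0.22, 0.65 and 0.34. These 8 include the 4 class I members, which were above 0 in each of these comparisons and are thus counted again here. Over all genes tested, 49.5%, 50.4% and 51.5% were above 0 in the same order. The pair was H2-Q6 itself and Hfe, an iron-regulating relative of class I, with log2 fold changes of 0.32 ± 0.30 in ECKO, -0.02 ± 0.34 in SMKO and -0.75 ± 0.34 in DKO against CTRL (adjusted p over 4 groups 0.471). Among the 5 class II list genes tested, all of them members, the pair was Cd74 and H2-Eb1.

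Genes of peptide loading and processing had medians of either sign. Of 6 tested genes for class I peptide loading, 2 were above 0 in ECKO, 4 in SMKO and 5 in DKO against CTRL, with medians of -0.01, 0.13 and 0.35. Erap1, a trimming peptidase, gave 1.06 ± 0.50 in DKO against CTRL and Canx, the chaperone calnexin, gave -0.20 ± 0.26 (adjusted p over 4 groups 0.780 and 0.808). The 4 immunoproteasome genes tested had medians of 0.20 in ECKO, 0.33 in SMKO and -0.04 in DKO against CTRL; among them, Psmb10 and Psmb8, catalytic subunits, gave -0.38 ± 0.57 and 0.20 ± 0.39 in DKO against CTRL (adjusted p over 4 groups 0.838 and 0.864). The 5 genes of class II lysosomal processing had medians of -0.31, -0.10 and 0.27 in the same order of groups. Ctss, the cathepsin that degrades the invariant chain, gave 0.36 ± 0.30 in DKO and -0.38 ± 0.30 in ECKO against CTRL, and Ctsb, another cathepsin, 0.61 ± 0.32 and -0.15 ± 0.32 (adjusted p over 4 groups 0.490 and 0.630).

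Upstream, 12 tested regulators and interferon-gamma signalling genes had medians of 0.14 in ECKO, 0.15 in SMKO and 0.03 in DKO against CTRL. Ifngr1, a chain of the interferon-gamma receptor, gave 0.63 ± 0.24 in ECKO and 0.02 ± 0.25 in DKO against CTRL, and Irf1, a factor that binds the interferon response element, -1.21 ± 0.45 in DKO and 0.06 ± 0.37 in ECKO against CTRL (adjusted p over 4 groups 0.485 and 0.522). The 11 interferon-stimulated genes tested had medians of 0.21, 0.24 and 0.32 in ECKO, SMKO and DKO against CTRL. Oasl2, of the interferon-induced OAS family, gave 0.77 ± 0.37 in ECKO, 1.14 ± 0.39 in SMKO and 1.14 ± 0.37 in DKO against CTRL, and Stat2, a signal transducer of type I interferon, 1.17 ± 0.45, 1.32 ± 0.48 and 0.996 ± 0.48 (adjusted p over 4 groups 0.422 and 0.531). Medians over all genes tested lay between -0.0041 and 0.016 in these 3 comparisons.

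Beyond the lists, the 5 genes whose log2 CPM over 12 libraries was most like the class II mean were Ndufb10, with Pearson's r = 0.84, Tmem229b (0.83), Ndufv1 (0.83), Cpxm1 (0.78) and Anxa6 (0.77). For the class I mean they were Atp6ap1 (0.86), Ltbp3 (0.85), Uba1 (0.84), Rpl41 (0.83) and Fbxo34 (0.83). Ndufb10 and Ndufv1 encode subunits of mitochondrial complex I and Atp6ap1 a subunit of the vacuolar proton pump. These are the top of all other genes tested, ranked on the libraries themselves, so the values describe likeness only.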

How the data were processed

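Per the labels' protocols, leaflet cDNA was tagmented with Nextera XT, a kit that does not mark strand, for paired reads of 75 bases. The authors deposited whole-number counts per gene, per the file headers, and these were the input of every test. For levels between genes the deposited TPM values were used, as named per the file headers. The deposited table also gives the authors' signed fold change (a score, negative where lower) and a p-value for DKO against each other group, per the file headers; no source used here names the test behind them. GRCm39 is the genome build listed in the submitters' processing notes; no source used here names the aligner, the counter or the annotation.

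Here, genes were kept where 3 or more libraries reached 10 counts after scaling to library size (6296 genes, 93.1% of counts), scaled by TMM and tested with edgeR 4.0.16 (R 4.3.3, quasi-likelihood F test, robust spread, 8 residual degrees of freedom, all 12 libraries in 1 model). The common biological coefficient of variation was 0.246. Alternatives used DESeq2 1.42.0, limma-voom (limma 3.58.1), other scalings, no filter, a depth covariate, the replicate number as a block, only the groups compared and leaving out each library. Leaving out libraries under 200000 counts, leaving out mitochondrial genes and adding H2-Q6 and H2-Q7 were chosen after seeing the data. The pipeline was tested on simulated data. Replicates differed by more than sampling noise (chi-square per degree of freedom 1.97 to 12.9), so none were merged for the tests. Counts of Nlrc5, Ciita and H2-Ea were pooled over libraries as a description, and their CPM are shares of raw totals without TMM scaling. Poisson intervals on pooled counts leave out the spread between replicates and are too narrow for comparing groups. Log2 CPM for correlations used a prior count of 2, and marker relations 100000 permutations. Poisson intervals cover counting error only.

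The members and gene lists were chosen with earlier results of these data known. Named beside the members are, per pathway list, genes called or else the 2 with the smallest p over the 4 groups, and the 5 genes most like each class; Nlrc5, Ciita, the partner chains and the marker genes were named after their values were seen. Of the listed genes, H2-L was not analysed here.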

Additional observations from a re-analysis of the deposited data

How the results depend on the processing

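No MHC gene was called under any alternative; the lowest adjusted p of a member was 0.0997, for H2-Q6 in the test over 4 groups. Of 642 member fold changes recomputed with a library left out, 47 changed sign, and of 532 under the other alternatives 14 did; the cause was not tested. By comparison these were 13 in ECKO, 2 in SMKO and 2 in DKO against CTRL, 9 in DKO against ECKO (6 members), 17 in DKO against SMKO (8 members) and 18 for the interaction (5 members), 13 of them H2-Ab1, whose interaction was 0.00508. Those against CTRL, and those of H2-Q6, follow. On the log2 scale, H2-DMa in ECKO against CTRL was -0.0166 with DESeq2, B2m there was -0.00742 with no filter and -0.150 without libraries under 200000 counts, and H2-Q6 in DKO against ECKO was 0.0243 with limma-voom. With a library left out, ECKO against CTRL ran over -0.00582 to 0.39 for H2-Ab1, -0.11 to 0.36 for H2-Eb1, -0.30 to 0.32 for H2-DMa, -0.16 to 0.41 for B2m and -0.0671 to 0.35 for H2-D1; SMKO against CTRL over -0.45 to 0.16 for H2-DMa and -0.0457 to 1.10 for B2m; DKO against CTRL over -0.20 to 0.89 for H2-Ab1 and -0.99 to 0.29 for H2-DMa; and DKO against ECKO over -0.51 to 0.36 for H2-Q6. H2-Q6 did not pass the filter without SMKO 1 and has no value there. With only the groups compared, it passed the filter in SMKO against CTRL and in none of the other pairs compared. Its entry into the tests thus leaned on the SMKO libraries, where its level was highest.

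Counts of called genes over the whole table moved more. With no filter they were 15 in ECKO, 8 in SMKO and 158 in DKO against CTRL, 173 in DKO against ECKO, 32 in DKO against SMKO, 28 for the interaction and 218 over 4 groups, against 0, 0, 31, 36, 0, 2 and 19 with it. DESeq2 gave 2 in ECKO against CTRL, 3 in DKO against SMKO, 1 for the interaction and 37 over 4 groups; limma-voom gave 12 in DKO against ECKO, 1 for the interaction and 11 over 4 groups. With depth as a covariate DKO had 16 against CTRL and 10 against ECKO, and the 4-group test 9. With only the groups compared ECKO had 3 against CTRL, and DKO 99 against CTRL and 172 against ECKO. Without libraries under 200000 counts there were 1 in ECKO against CTRL, 69 in DKO against ECKO and 1 for the interaction. With a library left out the counts ran over 0 to 2, 0 to 1, 4 to 139, 0 to 150, 0 to 128, 0 to 62 and 3 to 150, in the order of comparisons given first. Deviations of same-numbered libraries correlated at -0.14 to 0.18 (median 0.0776, 5 of 18 pairs over 0.1), and those of differently numbered ones at -0.20 to 0.15 (median -0.0369, 3 of 36 pairs over 0.1). Since not every pair was over 0.1, the numbers were not used as a pairing. That rule does not settle whether same-numbered libraries share a batch, which was not tested. With the replicate block 50 genes were called in DKO against CTRL, against 31 without it, and no member. H2-DMa and H2-Q6, with 134 and 107 counts in all, had the widest standard errors of the members in each pairwise comparison (0.47 to 0.59 on the log2 scale).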

Other observations

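The transactivators of both classes were scarce. Nlrc5, which drives class I genes, had pooled counts of 8 (ECKO), 8 (SMKO) and 12 (DKO), against 0 of 1297933 counts in CTRL. As shares of pooled raw totals, without TMM scaling, those are 6.65 CPM in ECKO (exact Poisson 95% interval 2.87 to 13.1). They are 9.21 CPM in SMKO (3.98 to 18.1) and 12.5 CPM in DKO (6.43 to 21.8). In CTRL the exact Poisson 95% interval runs from 0 to 2.84 CPM, just under the lower limit in ECKO. Allowing 3 counts over the pooled group would set the CTRL level at up to 2.31 CPM. By library, ECKO had 1, 4 and 3 counts, SMKO 4, 4 and 0, DKO 5, 3 and 4, and each CTRL library 0. The gene was below the filter, was named after its values were seen and was not tested, and the intervals cover counting error only. Ciita, which drives class II genes, had pooled counts of 10 (ECKO), 5 (SMKO), 2 (DKO) and 9 (CTRL), with intervals that overlapped between all groups.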
